A study of Homo sapiens with 4 samples.

Results

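The 2′-O-methylation of 18S rRNA, the RNA of the small ribosomal subunit, was followed at 39 positions of HAP1 cells, a human cell line with a nearly haploid genome that was derived from a leukaemia. These were all rows of the deposited table listed under 18S, from position 27 to position 1804, out of 108 rRNA positions in all. Sites are named by the modified base and the position as deposited (Am27 is a methylated adenosine at position 27). The study compared 4 HAP1 samples with 1 RiboMethSeq library each. The labels PAF49 and PAF49-GFP name no deletion, and these libraries are called full-length here, PAF49-GFP with a GFP fluorescent tag. PAF49delta1/2IDR-GFP and PAF49deltaIDR-GFP are tagged forms named for deletions of an intrinsically disordered region, which is a stretch of protein that takes no fixed fold. The labels give neither the residues removed, nor the promoter or clone behind each line, nor whether unmodified PAF49 was still present in those lines, which limits each line as a model. PAF49 is a subunit of RNA polymerase I, the enzyme that makes the precursor of 18S rRNA, and is listed as a synonym of POLR1G in RefSeq.

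Methyl groups on the 2′ oxygen of rRNA riboses are placed in the nucleolus by fibrillarin, the methyltransferase of box C/D small nucleolar ribonucleoproteins. A guide RNA of the SNORD family base-pairs with the rRNA and sets the nucleotide that is methylated, and most of these guides are cut from introns of host genes. Some sites have more than 1 guide, and some guides serve more than 1 site. Some rRNA sites are known to be methylated on nearly every ribosome and others on a share of ribosomes. RiboMethSeq reads this modification from partial alkaline hydrolysis: a methylated ribose resists cleavage, read ends become rare at that place, and a MethScore near 1 is read as near-complete protection. With 1 library per group there was no spread between replicates and no test could be made, and the table gives no depth behind the scores. Every difference below therefore compares single libraries, and sites are not replicates of a condition.

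Over the 156 scores of 18S rRNA, the lowest was 0.0516 and the highest 0.986, and no score was listed at 0. The mean over the 4 libraries was 0.9 or above at 25 sites, from 0.5 to 0.9 at 11 sites and under 0.5 at 3 sites. The last were Um354, Gm867 and Cm1272, and they lay apart from the rest, since the next lowest site, Um428, had a mean of 0.706. The median over the 39 sites was 0.915 in PAF49 and 0.912 in PAF49-GFP. In the deletion libraries it was 0.922 (PAF49delta1/2IDR-GFP) and 0.923 (PAF49deltaIDR-GFP). The range of a site, its highest minus its lowest score over the 4 libraries, is used as the measure of stability. The range was under 0.02 at 17 of the 39 sites, beside 40.7% of all 108 sites, so 18S rRNA was near the share of the whole table. It was 0.05 or more at 8 sites (30.6% of the whole table) and 0.1 or more at 2 sites (11.1% of the whole table), Um354 and Gm867.

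**Figure D1:**
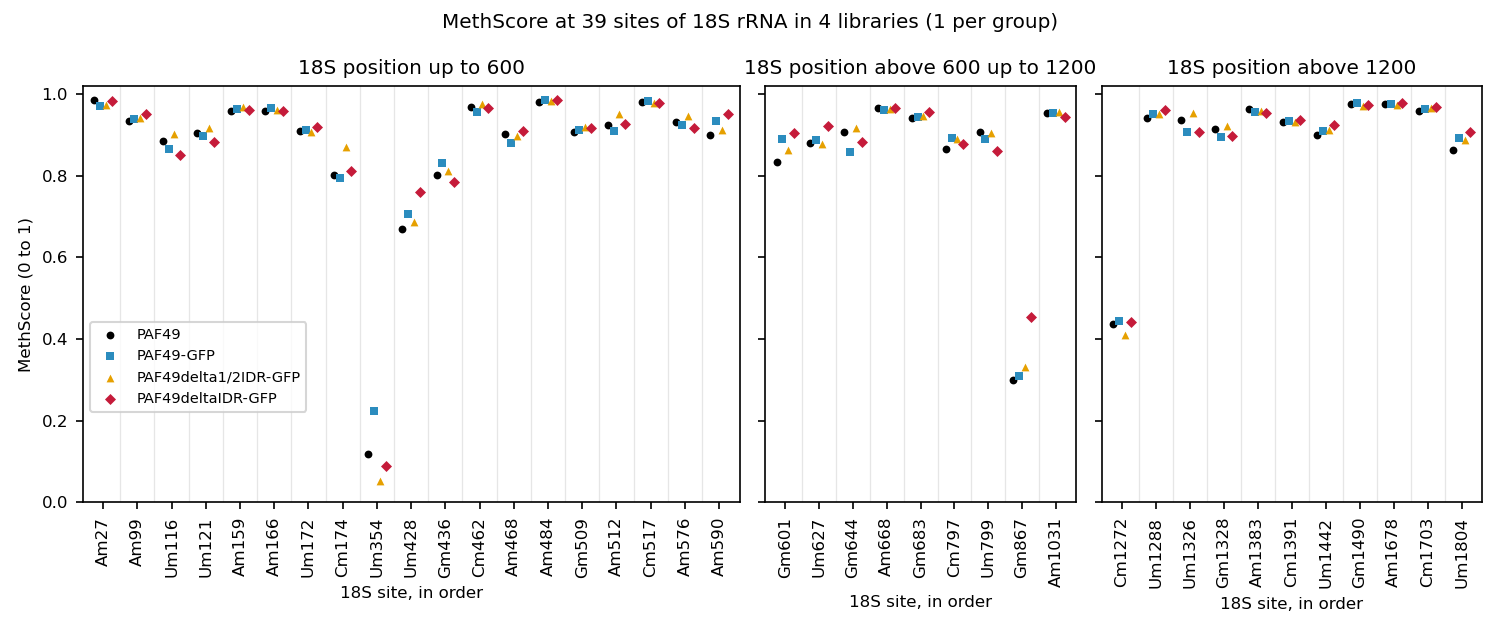
MethScore (vertical axis, 0 to 1) at each of the 39 sites of 18S rRNA in order (horizontal axis), in 3 stretches of the numbering, with 1 marker per library. Most sites lie near the top with their markers close together, and Um354, Gm867 and Cm1272 lie below 0.5.

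The sites were described in 3 stretches of the numbering: positions up to 600 (19 sites), above 600 up to 1200 (9 sites) and above 1200 (11 sites). As background, the first lies in the 5′ domain of the small subunit rRNA, the second mainly in the central domain and the third in the 3′ domains. The median of the site means was 0.924 in the first, 0.892 in the second and 0.934 in the third. Sites with a mean of 0.9 or above numbered 13 of 19, 3 of 9 and 9 of 11. Each stretch held 1 site under 0.5, which were Um354, Gm867 and Cm1272 in that order.

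The median range of a site was 0.0290 up to 600, 0.0454 above 600 up to 1200 and 0.0207 above 1200. The place of the middle stretch rested on 1 library, since without PAF49deltaIDR-GFP its median range was 0.0179, beside 0.0186 in the first stretch and 0.0104 in the third. Without PAF49-GFP the medians were 0.0187, 0.0340 and 0.0207, and the third stretch then no longer had the smallest. Leaving out PAF49 gave 0.0290, 0.0399 and 0.0105, and leaving out PAF49delta1/2IDR-GFP gave 0.0175, 0.0435 and 0.0101. The 3 sites of the middle stretch with a mean of 0.9 or above (Am668, Gm683 and Am1031) all had ranges under 0.02, as did 9 of 13 such sites in the first stretch and 5 of 9 in the third. No site with a mean under 0.9 had a range under 0.02 in any stretch. The middle stretch held the largest share of sites with a mean under 0.9, 6 of 9. The largest range above 1200 was 0.0468, so no site of that stretch reached 0.05.

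In the sentences that follow, the 4 scores of a site are given with both full-length libraries first (PAF49, then PAF49-GFP), followed by PAF49delta1/2IDR-GFP and, last, by PAF49deltaIDR-GFP.

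The most variable site of 18S rRNA was Um354, known to be guided by SNORD90. Its scores were 0.117, 0.224, 0.0516 and 0.0883. PAF49-GFP was highest and both deletions were below both full-length libraries. The tagged full-length library exceeded PAF49 by 0.106, while PAF49delta1/2IDR-GFP differed from it by -0.172 and PAF49deltaIDR-GFP by -0.135. Against PAF49 the same deletions differed by -0.0658 and -0.0292. The distance between the full-length libraries was therefore larger than that of either deletion from PAF49. After quantile normalisation the differences from PAF49-GFP were 0 and -0.0881, values fixed by the rank of Um354 at the bottom of the table. The score that an unmethylated nucleotide would give is not known here, so a low score does not by itself show methylation.

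Gm867, guided by SNORD98, was the only 18S site at which a deletion library lay 0.1 or more from each of the other libraries. The scores were 0.299, 0.310, 0.332 and 0.454. The other libraries lay within 0.0323 of each other, and PAF49deltaIDR-GFP was above all of them. It exceeded PAF49-GFP by 0.144, PAF49 by 0.155 and PAF49delta1/2IDR-GFP by 0.122, whereas the full-length libraries differed by 0.0110. Gm867 was the only 18S site at which a deletion differed from both full-length libraries by 0.1 or more. Such a distance was not particular to 18S rRNA. In 28S rRNA PAF49deltaIDR-GFP exceeded PAF49-GFP and PAF49 by 0.129 and 0.130 at Cm2824. At Gm4618 it exceeded them by 0.135 and 0.338, and PAF49delta1/2IDR-GFP by 0.194. At Gm867 PAF49delta1/2IDR-GFP did not share that distance, as it exceeded PAF49-GFP by 0.0213. After quantile normalisation PAF49deltaIDR-GFP exceeded PAF49-GFP by 0.120, a value fixed by ranks. Gm867 ranked 5th from the bottom of all sites in PAF49deltaIDR-GFP and 3rd in each of the other libraries. On the log2 odds scale PAF49deltaIDR-GFP exceeded PAF49-GFP by 0.89, under the threshold of 1 used on that scale.

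Cm1272, guided by SNORD66, shows that a low level did not go with a wide range at every site. Its scores were 0.437, 0.444, 0.409 and 0.442. PAF49delta1/2IDR-GFP was lowest and the other libraries lay within 0.00701 of each other. The range of 0.0350 was below that of 14 other 18S sites, all with higher means except Um354 and Gm867.

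Read by comparison, few 18S sites were past a difference of 0.1. PAF49-GFP differed from PAF49 by that much at 1 site (Um354, higher), beside 1.85% of all sites. PAF49delta1/2IDR-GFP differed from PAF49-GFP at 1 site (Um354, lower), beside 3.70%. PAF49deltaIDR-GFP differed from PAF49-GFP at 2 sites (Gm867 higher, Um354 lower), beside 4.63%, and from PAF49delta1/2IDR-GFP at 1 site (Gm867, higher), beside 3.70%. These comparisons share libraries and are not independent. With PAF49 as the control, PAF49delta1/2IDR-GFP was past 0.1 at 0 sites of 18S rRNA (0.926% of all sites) and PAF49deltaIDR-GFP at 1, Gm867 (4.63% of all sites).

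At the smaller threshold of 0.05 the deletions also differed from the tagged full-length library at few sites. For PAF49delta1/2IDR-GFP these were Cm174 (0.0782), Gm644 (0.0588) and Um354, 3 sites beside 12.0% of the whole table. For PAF49deltaIDR-GFP they were Gm867, Um428 (0.0557) and Um354, 3 sites beside 13.9%. The full-length libraries were themselves 0.05 or more apart at Um354 and Gm601 (0.0566), beside 12.0% of the whole table. Um354 was on all 3 lists, which share the PAF49-GFP library, and no other site was on more than 1. The median absolute difference over the 39 sites was 0.00919 between the full-length libraries, 0.00672 for PAF49delta1/2IDR-GFP and 0.0106 for PAF49deltaIDR-GFP, each against PAF49-GFP. The values of the deletions thus lay on both sides of that of the full-length pair.

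**Figure D2:**
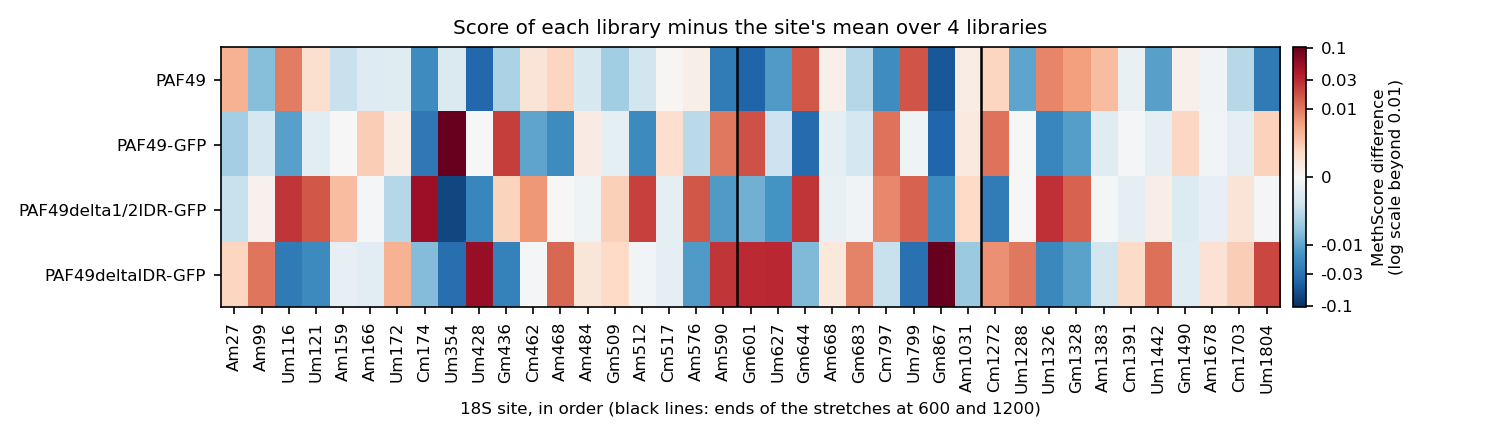
Score of each library (rows) minus the mean of the 4 libraries at each 18S site in order (columns), with red above and blue below the mean on a colour scale that is logarithmic beyond 0.01. The deepest red cells are PAF49-GFP at Um354 and PAF49deltaIDR-GFP at Gm867.

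In the first stretch, 9 of 19 sites had a range under 0.02. The most stable was Cm517, guided by SNORD56, with scores of 0.982, 0.984, 0.979 and 0.979. Am484 (SNORD16) had a mean of 0.984, the highest of 18S rRNA, and a range of 0.00548. Near the 5′ end, Am27 (SNORD27) had a mean of 0.978 and a range of 0.0131, and Am99 (SNORD57) a mean of 0.941 and a range of 0.0187. Cm462, guided by SNORD14A of the U14 family, which is also known for its part in 18S rRNA processing, had a mean of 0.967 and a range of 0.0186. Gm509 (SNORD11) had a mean of 0.914 and a range of 0.0112. At these 6 sites the libraries lay close together near the top of the scale.

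A cluster of sites from Am159 to Cm174 held both stable and variable positions. Am159 had a mean of 0.963 and a range of 0.0101, and Am166, guided by SNORD44, a mean of 0.962 and a range of 0.00715. Um172 had a mean of 0.912 and a range of 0.0122. Cm174, 2 nt further on, scored 0.803, 0.793, 0.872 and 0.811. There PAF49delta1/2IDR-GFP was highest, with the other 3 libraries within 0.0181 of each other. SNORD45C is known to guide both Um172 and Cm174, and Um172 is also a target of SNORD45A, a guide of Am159. PAF49delta1/2IDR-GFP was highest at Cm174 and lowest at Um172.

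Um116 and Um121, 5 nt apart, varied in the same order. Um116 (SNORD42A and SNORD42B) scored 0.886, 0.865, 0.902 and 0.851. Um121 (SNORD4A and SNORD4B) scored 0.904, 0.899, 0.917 and 0.883. At both sites PAF49delta1/2IDR-GFP was highest, then PAF49, PAF49-GFP and PAF49deltaIDR-GFP. The deletions therefore lay at opposite ends, with both full-length libraries between them.

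Um428 and Gm436, 8 nt apart, went opposite ways in PAF49deltaIDR-GFP. Um428 (SNORD68) scored 0.669, 0.706, 0.687 and 0.761, with PAF49deltaIDR-GFP highest. Gm436 (SNORD100) scored 0.801, 0.830, 0.811 and 0.785, with PAF49deltaIDR-GFP lowest. Both belong to the 11 sites of intermediate level, and Um428 had the third largest range of 18S rRNA, 0.0927.

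The remaining sites of the first stretch had ranges from 0.0290 to 0.0503. Am468 (SNORD83A and SNORD83B) scored 0.902, 0.881, 0.898 and 0.911, with PAF49-GFP lowest. Am512 (SNORD70) scored 0.925, 0.911, 0.951 and 0.928, with PAF49delta1/2IDR-GFP highest and PAF49-GFP lowest. At Am576 (SNORD93) the scores were 0.931, 0.924, 0.946 and 0.917, with the deletions at opposite ends. This last order, PAF49delta1/2IDR-GFP highest and PAF49deltaIDR-GFP lowest, was that of Um116 and Um121. Am590 (SNORD62A and SNORD62B) ran the other way: its scores were 0.9004, 0.935, 0.912 and 0.951, with PAF49-GFP and PAF49deltaIDR-GFP above the other libraries.

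In the middle stretch, Gm601, the 18S site next to Am590, had the same order of libraries. Gm601 (SNORD103A and SNORD103B) scored 0.834, 0.890, 0.864 and 0.904. PAF49deltaIDR-GFP was highest and PAF49 lowest, with a range of 0.0699, the fifth largest of 18S rRNA. Position 601 falls just past the boundary of the stretches, so the numbering splits these neighbours. Their order of libraries was not particular to them. It was also found at Um428, Am484 and Um1804, and at sites of 28S rRNA such as Cm1340 and Gm4618. Um627 (SNORD65) scored 0.880, 0.888, 0.878 and 0.923, with PAF49deltaIDR-GFP above 3 libraries that lay within 0.0105 of each other. Gm644 (SNORD54) scored 0.908, 0.858, 0.917 and 0.883, and there PAF49 and PAF49delta1/2IDR-GFP were the higher pair.

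Am668 was the most stable site of 18S rRNA and of the whole table. The site is guided by SNORD36A and SNORD36B, and its scores were 0.965, 0.962, 0.962 and 0.966, a range of 0.00376. Gm683 (SNORD19) had a mean of 0.947 and a range of 0.0151, and Am1031 (SNORD59A and SNORD59B) a mean of 0.952 and a range of 0.0110. Both stayed high in all 4 libraries. Cm797 scored 0.865, 0.893, 0.891 and 0.877, with PAF49 lowest. Um799 (SNORD105), 2 nt further on, scored 0.908, 0.891, 0.905 and 0.861, with PAF49 highest and PAF49deltaIDR-GFP lowest. These neighbours shared neither the highest nor the lowest library.

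The third stretch held Cm1272, described above, and otherwise sites with means from 0.887 to 0.976. The most stable was Am1678, guided by SNORD82, with scores of 0.975, 0.975, 0.974 and 0.979. Cm1703 (SNORD43), which lies at the decoding site where codon and anticodon meet, had a mean of 0.965 and a range of 0.0101. Gm1490 (SNORD25) had a mean of 0.975 and a range of 0.00661, Am1383 (SNORD30) a mean of 0.958 and a range of 0.00946, and Cm1391 (SNORD28) a mean of 0.934 and a range of 0.00552. These 5 sites differed between libraries by at most 0.0101.

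Um1326 and Gm1328, 2 nt apart, were the variable neighbours of this stretch. Um1326 (SNORD33) scored 0.936, 0.908, 0.955 and 0.908. Gm1328 (SNORD32A) scored 0.915, 0.896, 0.922 and 0.897. The order of libraries was the same at both, with PAF49delta1/2IDR-GFP and PAF49 above a PAF49deltaIDR-GFP and a PAF49-GFP score that lay within 0.000796 of each other. As both guides lie within the RPL13A gene in RefSeq, the pair shares a host gene as well as a place in the rRNA. Other close neighbours with a shared host gene were mixed. Um116 and Um121 (RPL23A) had the same highest and the same lowest library, and Gm509 and Am512 (NOP58) only the same highest. Um172 and Cm174 (RABGGTB) shared neither, nor did Am1383 and Cm1391 (SNHG1). The part of the host gene was not tested.

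At Um1288, Um1442 and Um1804 PAF49deltaIDR-GFP was highest and PAF49 lowest. Um1288 (SNORD110) scored 0.941, 0.952, 0.952 and 0.962. Um1442 (SNORD61) scored 0.901, 0.910, 0.913 and 0.924. Um1804 (SNORD20), nearest the 3′ end, scored 0.862, 0.892, 0.887 and 0.908. All 3 tagged libraries lay above PAF49 at each of these sites. The tagged full-length library reached 0.494, 0.408 and 0.641 of the distance from PAF49 to PAF49deltaIDR-GFP at Um1288, Um1442 and Um1804. Having PAF49deltaIDR-GFP highest and PAF49 lowest was not particular to these sites. It was also so at Cm1703 and, in the other stretches, at Am99, Um428, Am484, Am590, Gm601, Gm683 and Gm867.

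On the deposited scale the median range in 18S rRNA was largest for uridines and smallest for adenosines. The median range was 0.0458 over 11 uridines, 0.0353 over 8 guanosines, 0.0186 over 7 cytidines and 0.0110 over 13 adenosines. On the log2 odds scale it was 0.66 for uridines, 0.47 for adenosines, 0.45 for guanosines and 0.42 for cytidines, so uridines were again highest but adenosines were no longer lowest. Of the uridines, 1 had a range under 0.02 (Um172), beside 9 of the adenosines, 4 of the cytidines and 3 of the guanosines. The bases also differed in level, with medians of the site means of 0.892 for uridines, 0.8996 for guanosines, 0.934 for cytidines and 0.958 for adenosines. Of the 13 adenosines, 12 had a mean of 0.9 or above, Am468 being the exception. In 28S rRNA, 11 of 21 adenosines reached that level, and the median range over all 21 was 0.0361, a difference between the rRNAs for which no test was possible. The part of level in the differences between bases was not tested.

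The ranges of 18S and 28S rRNA were set side by side within classes of level. Among sites with a mean of 0.9 or above, the median range was 0.0122 over 25 sites of 18S and 0.0157 over 34 sites of 28S rRNA. From 0.5 to 0.9 it was 0.0475 over 11 sites of 18S and 0.0775 over 31 sites of 28S rRNA, an order that turned on the log2 odds scale (0.68 in 18S and 0.62 in 28S rRNA). Under 0.5 it was 0.155 over 3 sites of 18S and 0.103 over 2 sites of 28S rRNA, the larger value here being that of 18S rRNA. This order turned as well on the log2 odds scale, with 0.96 in 18S and 2.00 in 28S rRNA. The 28S value rested on Um2044 (3.29) and Am3867 (0.71). At Um2044 the PAF49-GFP score was 0 and was raised to 0.01 before the odds were taken, so its odds range depends on that limit. Ranges of 0.1 or more in the class from 0.5 to 0.9 numbered 0 in 18S and 9 in 28S rRNA. The 11 intermediate 18S sites had a median of site means of 0.881, beside 0.782 in 28S rRNA, so they sat higher within the class.

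**Figure D3:**
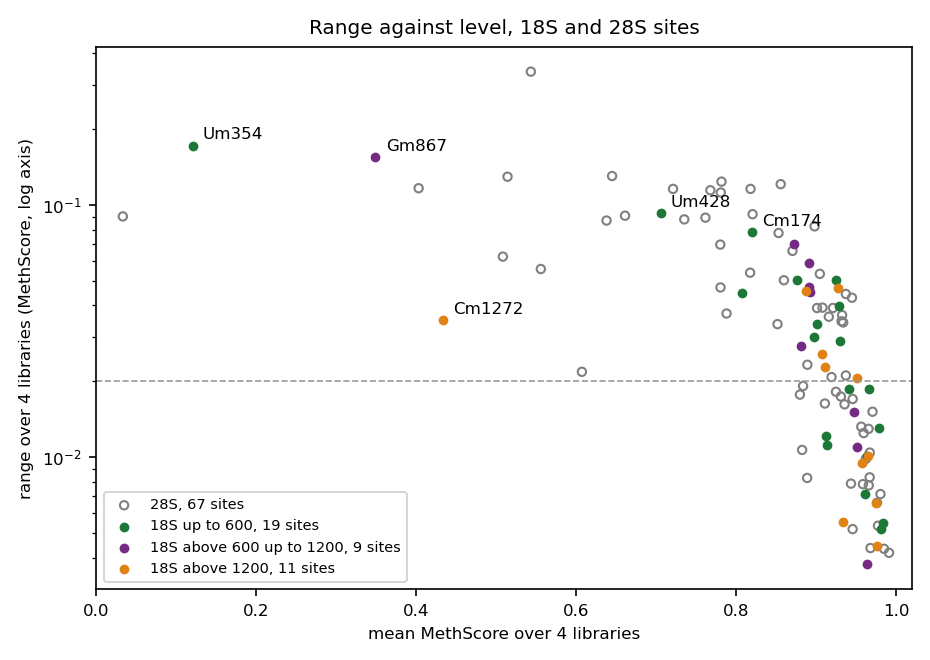
Range of the score over 4 libraries (vertical axis, logarithmic) against the mean score (horizontal axis) for 39 sites of 18S rRNA, coloured by stretch, and 67 sites of 28S rRNA (open circles); the dashed line marks 0.02. Ranges under 0.02 in 18S rRNA occur only at means of 0.9 or above, and Cm1272 lies well below Um354 and Gm867.

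Because scores near 1 have little room, the sites were also ranked by their range on the log2 odds scale, where odds are the score over 1 minus the score (scores limited to 0.01 to 0.99). Um354 again came first, with a range of 2.40. Um1326 (1.10) and Am590 (1.09) came next, ahead of Gm867 (0.96), although their score ranges were 0.0468 and 0.0503. Am27 moved from the 26th largest score range to the 6th largest on this scale (0.91), as its score was 0.985 in PAF49 and 0.972 in PAF49-GFP. Cm1272 moved the other way, to 36th of 39 (0.21). Cm1391 (0.13) and Am668 (0.16) were the most stable on this scale. The median log2 odds range was 0.55 up to 600, 0.68 above 600 up to 1200 and 0.41 above 1200, the same order of stretches as for the score.

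**Figure D4:**
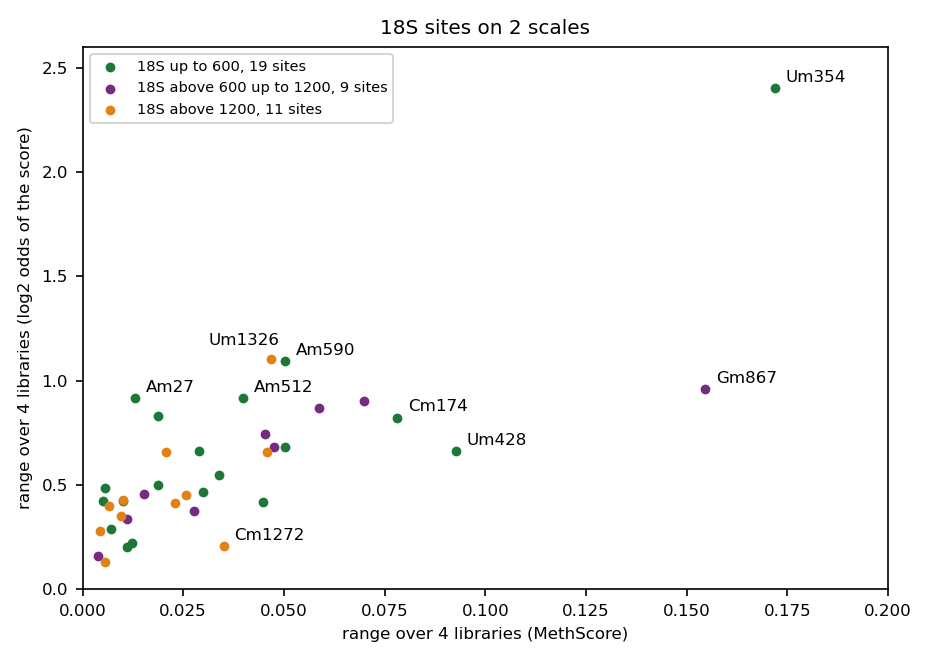
Range of each 18S site over 4 libraries in MethScore (horizontal axis) and in log2 odds of the score (vertical axis), coloured by stretch. Um354 is farthest out on both axes, while Um1326, Am590 and Am27 stand higher on the log2 odds axis than their score range places them.

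The libraries were then compared site by site for which pair lay together. The deletions were both higher than either full-length library at 9 of the 39 sites (25.0% of all sites in the table) and both lower at 3 (5.56%). The 9 were Am99, Cm174, Gm509, Am512, Gm683, Gm867, Um1288, Um1442 and Cm1703, and the 3 were Um354, Cm517 and Gm1490. The gap between the nearest libraries was 0.02 or more at Gm867 (0.0213) and Um354 (0.0292), 2 sites beside 8.33% of the table, and under 0.01 at the other 10. The direction depended on scaling: with libraries shifted to the same median over the table, the deletions were above at 3 sites and below at 7, and after quantile normalisation above at 3 and below at 5.

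Another pairing was more frequent in 18S rRNA, as in the table as a whole. PAF49 and PAF49delta1/2IDR-GFP lay together on one side of PAF49-GFP and PAF49deltaIDR-GFP at 19 of 39 sites, beside 46.3% of all sites. They were the higher pair at 9 sites and the lower at 10, and after the shift at 9 and 14. Gaps of 0.02 or more occurred at Um116, Gm644 and Um1326, where this pair was higher, and at Am590 and Gm601, where it was lower, 5 sites beside 11.1% of the table. At Am590, Gm601 and Um627, which follow each other along the rRNA, PAF49 and PAF49delta1/2IDR-GFP were lower, and at the next site, Gm644, they were higher. This pairing crosses the deletions with the full-length proteins, and the sources used here do not say what these libraries share beyond their labels. The remaining pairing, PAF49 with PAF49deltaIDR-GFP, was seen at 8 sites, beside 23.1% of all sites.

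As deposited, PAF49deltaIDR-GFP was the highest library at 17 sites, PAF49delta1/2IDR-GFP at 12, PAF49-GFP at 7 and PAF49 at 3, and PAF49 was the lowest at 15. Over all 108 sites these libraries were the highest at 40, 41, 17 and 10, and PAF49 was the lowest at 41. The 18S counts moved with scaling: a shift to the same median gave 15, 7, 9 and 8 sites as the highest, in the same order, and PAF49 the lowest at 11. As deposited, 23 sites were higher in PAF49delta1/2IDR-GFP than in PAF49-GFP and 16 were lower, whereas after the shift 13 were higher and 26 lower. PAF49deltaIDR-GFP was higher than PAF49-GFP at 25 and lower at 14, and after the shift at 21 and 18. PAF49-GFP was higher than PAF49 at 25 and lower at 14, and after the shift at 23 and 16. The split into higher and lower sites thus moved with the scaling of the libraries, and no direction over the 39 sites as a whole is given. Over all 108 sites as deposited, the splits were 68 higher and 40 lower, 63 and 45, and 65 and 43, in the order of these comparisons.

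Neighbouring sites were compared because such scores usually rest on read ends around a position. Among the 11 pairs of consecutive 18S sites at most 10 nt apart, the same library was highest at both sites in 3 pairs and the same library was lowest in 4. Both held for Um116 with Um121 and for Um1326 with Gm1328, and neither held for 6 pairs. The 19 sites with another scored 18S site within 10 nt had a median range of 0.0277, beside 0.0218 over the 20 others, and the order turned on the log2 odds scale, with 0.45 and 0.58. Close neighbours may share part of the window from which their scores were made, and its part in these values was not tested.

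Guides were named from background knowledge for 38 of the 39 sites, all but Cm797, and their 45 symbols are all listed in RefSeq, where each lies within a host gene. Of the host genes, 8 carry guides of more than 1 of these sites. SNHG1, a noncoding host gene, holds the guides of Am27, Am1383, Cm1391 and Gm1490. These 4 sites had ranges from 0.00552 to 0.0131, all under 0.02, beside 40.7% of all sites. All 4 had means of 0.9 or above, a class in which 17 of 25 18S sites had ranges under 0.02. On the log2 odds scale Am27 had the 6th largest range of 18S rRNA (0.91). NOP56, a core protein gene of the box C/D particle, holds the guides of Am99, Cm517 and Um1288, with ranges from 0.00519 to 0.0207. Other hosts held unlike sites: the guides within NCL, the gene of nucleolin, belong to Am1678 and Um1804, with ranges of 0.00444 and 0.0458, and those within RABGGTB to Am159, Um172 and Cm174, with ranges from 0.0101 to 0.0782. The grouping by host was made after the values were seen, and guide RNA levels are not part of the table.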

How the data were processed

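RiboMethSeq was run on total RNA of 4 HAP1 samples, 1 library each. RNA extracted with TRI Reagent was partly hydrolysed in bicarbonate and, after end repair, a small RNA kit was used for Illumina libraries, per the labels' protocols. Bowtie2 2.3.3.1 and Trimmomatic 0.36 are listed in the submitters' processing notes, without role or order. The sources used here do not give the score formula, its window, the rRNA reference or any filter. The values the authors deposited are MethScores, headed raw data per the file headers, and were treated as a fraction because they lie from 0 to below 1. It is not stated that a score is the share of molecules methylated. The fold-change block was not used.

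From these scores the mean, range and differences at each site were computed (Python 3.11.15, pandas 2.3.3), and differences of 0.1 or more counted, beside the same count over all 108 sites. Counting was checked on simulated data. Sites are described by stretch, and all 39 are named. The 4 scores are printed where the range is 0.02 or more or the mean under 0.9, and for the most stable site of each stretch. Alternatives were a threshold of 0.05, shifting libraries to equal medians, quantile normalisation, log2 odds, the other full-length control and leaving out each library. The sites and lists were chosen with earlier results of these data known. Guides were matched by symbol to a RefSeq gene table of GRCh38.p14. Host genes, small RNA genes aside, were those whose interval in RefSeq holds the guide gene. No coordinates are printed, because the table names no build.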

Additional observations from a re-analysis of the deposited data

How the results depend on the processing

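With 1 library per group and no read depth, no value here has a replicate or counting error, and scores near 1 have little room to vary. Sites of 18S rRNA past 0.1 numbered 1 between the full-length libraries, 1 for PAF49delta1/2IDR-GFP and 2 for PAF49deltaIDR-GFP against PAF49-GFP, and 1 between the deletions, and this order is kept below. Shifting libraries to equal medians moved none of these counts. A threshold of 0.05 gave 2, 3, 3 and 4 sites, quantile normalisation 0, 0, 1 and 1, and log2 odds with a difference of at least 1 gave 1, 2, 1 and 1, where Um1326 came in (higher in PAF49delta1/2IDR-GFP than in PAF49-GFP and in the other deletion) and Gm867 dropped out. With PAF49 as control the deletions had 0 and 1 sites. Quantile normalisation left Um354 at 0 in the first 2 comparisons by its rank alone, as it was the lowest but 1 of all sites in PAF49, PAF49-GFP and PAF49delta1/2IDR-GFP. Gm867 in PAF49deltaIDR-GFP minus PAF49-GFP ran from 0.120 after quantile normalisation, a value also set by ranks, to 0.155 with PAF49 as control. On the log2 odds scale the difference from PAF49-GFP was 0.89. The deletions were both higher than either full-length library at 9 sites as deposited, at 3 after either scaling and at 1 with a gap of 0.02. They were both lower at 3 sites, and under these settings at 7 (shift), 5 (quantile) and 1. The pairing of PAF49 with PAF49delta1/2IDR-GFP, for which scalings were added after seeing the data, was 9 above and 10 below as deposited, 9 and 14 after the shift, and 8 and 12 after quantile normalisation. Sites with a range under 0.02 numbered 17, and from 18 to 22 under scalings and with each library left out. The median range up to 600 was 0.0187 without PAF49-GFP, 0.0175 without PAF49delta1/2IDR-GFP and 0.0186 without PAF49deltaIDR-GFP. Above 600 up to 1200 it was 0.0179 without PAF49deltaIDR-GFP. Above 1200 it was 0.0105 without PAF49, 0.0101 without PAF49delta1/2IDR-GFP and 0.0104 without PAF49deltaIDR-GFP. Fewer libraries can only narrow a range. The mean over sites in place of the median gave levels of 0.869, 0.849 and 0.893 in the 3 stretches, below the median in each. No paired analysis was possible because each group has 1 library.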
